A study of Homo sapiens with 4 samples.

Results

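Proximal 3′ UTR peaks are the IGF2BP3-bound regions whose summit, the position of highest signal in a peak, lay more than 200 and at most 1000 nt past the stop codon of an mRNA. In the text, a range such as 200 to 1000 nt leaves out its first value. They were kept when the peak was at most 1000 bp wide and its summit fell on exactly 1 MANE Select mRNA, the reference transcript chosen for each protein-coding gene, in GENCODE release 44. Of the 44622 peaks of replicate 1, 1652 were proximal 3′ UTR peaks (3.70%), and of the 42723 peaks of replicate 2, 1441 were (3.37%). They lay on 1469 mRNAs in replicate 1 and 1268 mRNAs in replicate 2. The choice used position and width only, not the enrichment, its corrected significance, the sequence or the presence in the other list. Enrichment, corrected significance and presence in the other list went with width, however, so they are not independent of the width limit.

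The data came from RNA immunoprecipitation followed by sequencing (RIP-seq) in OE-19, an established human line from an adenocarcinoma of the esophagogastric junction. OE-19 cells grown in RPMI1640 with fetal bovine serum, with UV fixation named in the labels and no treatment, were lysed, and IGF2BP3 was pulled down with an antibody. The series held 4 samples, 2 IGF2BP3 RIP replicates and 2 input replicates, all from this 1 cell line. Peaks were listed for each RIP replicate separately, in hg38 coordinates, and the inputs were not analysed here.

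IGF2BP3 belongs to a family of oncofetal RNA-binding proteins that hold mRNAs in ribonucleoprotein particles, and it is known for stabilising bound mRNAs, for binding CA-rich elements and for reading N6-methyladenosine (m6A). The 3′ UTR, the untranslated stretch between the stop codon and the poly(A) tail, is where microRNAs, AU-rich element proteins and many other regulators of decay and translation dock. m6A is known to be dense near stop codons, at the sequence GGAC and its variants.

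The overlapping sites with the highest mean fold over the replicates are shown first, as the 29 nt of mRNA centred on the replicate 1 summit. These 8 were among the 10 with the highest mean fold enrichment of the sites where a proximal 3′ UTR peak of replicate 1 overlapped one of replicate 2 on the same mRNA. They show what RNA lay under the replicate 1 summits of these sites, and the replicate 2 summits of some lay elsewhere. Sequences are written 5′ to 3′ on the mRNA strand from GRCh38, with T for U. Capitals mark matches to the 10 motifs examined further on, which include the CA-rich word CACA, the IGF2BP words that start with CAT and end in A, C or T, and the m6A word GGAC.
ZNF385A (ENSG00000161642.18, chr12:54369383-54369411, minus strand): cgatccaagttcctagacctcatggctgt
MUC17 (ENSG00000169876.14, chr7:101058541-101058569, plus strand): agctcagagatgttcctcccctCATCtgc
ALCAM (ENSG00000170017.12, chr3:105575158-105575186, plus strand): aagaCATAaaacagaatttggtagcactt
RCOR1 (ENSG00000089902.10, chr14:102726789-102726817, plus strand): cccgccggagcccccgagccccaccaatg
PSME4 (ENSG00000068878.15, chr2:53865048-53865076, minus strand): aaagagggcaagtcctgaacctaaccaat
PER2 (ENSG00000132326.13, chr2:238245450-238245478, minus strand): ttccacccagccaagccCACATCACATCt
BTBD7 (ENSG00000011114.15, chr14:93241427-93241455, minus strand): gtggagaccgggcgcagtgactCACAcct
SAP130 (ENSG00000136715.19, chr2:127941747-127941775, minus strand): tgtCATAagtgactccggatgCATCagtg

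All 8 stretches lay in the last exon of their mRNA. Several held CACA or a CATA, CATC or CATT word, and PER2 held both, while the stretches of ZNF385A, RCOR1 and PSME4 matched none of the words.

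Fold enrichment, the ratio of RIP signal to local background at the summit as the authors' peak caller gave it, ran from 1.87 to 6.21 in replicate 1 and from 1.801 to 6.85 in replicate 2. The median was 2.78 in replicate 1 and 2.77 in replicate 2. A fold of at least 5 was reached by 7 proximal 3′ UTR peaks of replicate 1 (0.424%) and 3 of replicate 2 (0.208%). Most were single on their mRNA, since 1289 mRNAs of replicate 1 carried 1, 177 carried 2 and 3 carried 3. In replicate 2, the corresponding numbers of mRNAs were 1101, 161 and 6. Nearly every one lay in the last exon, 1651 in replicate 1 and 1440 in replicate 2. A 3′ UTR of more than 200 nt and at least 1 summit were found on 5841 mRNAs in replicate 1, and 25.1% of these carried a proximal 3′ UTR peak. In replicate 2, 22.4% of 5661 such mRNAs did.

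Where the summits lay within the 3′ UTR was examined first. Summit density was expressed per kb of sequence that exists at a given distance from the stop codon, over mRNAs with any summit. It was 2.34 summits per kb in replicate 1 and 2.35 in replicate 2 over the last 800 nt before the end of the stop codon. Over the first 200 nt of the 3′ UTR it was 0.770 and 0.762. The lowest density of the 200 nt steps came next, at 200 to 400 nt, with 0.308 summits per kb in replicate 1 and 0.302 in replicate 2. The density was then 0.379 and 0.329 at 400 to 600 nt, 0.460 and 0.384 at 600 to 800 nt, and 0.451 and 0.423 at 800 to 1000 nt. Further out, from 1000 to 3000 nt, it was 0.461 and 0.431. Proximal 3′ UTR peaks thus started in a trough and reached the level of the distal 3′ UTR within their own stretch. The density at 200 to 400 nt was 0.683 times that at 800 to 1000 nt in replicate 1 and 0.716 times in replicate 2, a ratio of 0.699 ± 0.0229 (SD, n = 2). An exact two-sided permutation test over the replicates gave p = 0.5, the smallest p that this test allows with 2 replicates, so it cannot reach 0.05 in any comparison here. The study calls them biological replicates.

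**Figure D1:**
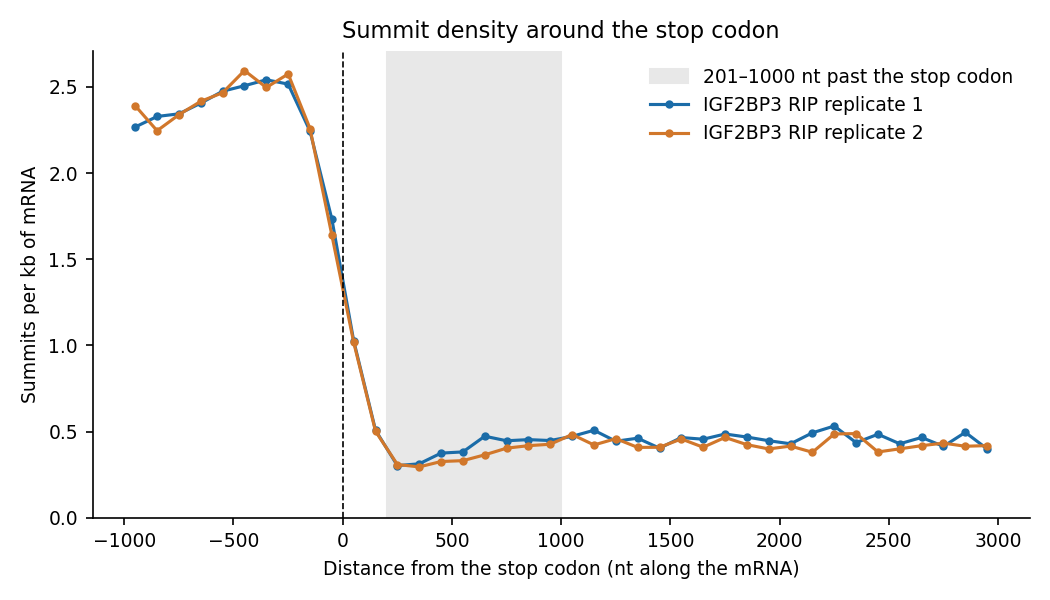
Summits per kb of mRNA (y axis) in steps of 100 nt by distance from the stop codon (x axis, nt along the mRNA, negative before it), for IGF2BP3 RIP replicate 1 (blue) and replicate 2 (orange), with the stretch of 200 to 1000 nt shaded. Both lines fall from above 2 summits per kb before the stop codon to a low point at 200 to 400 nt (0.308 and 0.302) and rise to 0.451 and 0.423 at 800 to 1000 nt.

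The median distance past the stop codon was 632 nt in replicate 1 and 628 nt in replicate 2, and the median distance left to the 3′ end of the mRNA was 2072 and 2071 nt. Only 2.36% and 3.05% lay within 200 nt of that end. mRNAs with a proximal 3′ UTR peak had a median 3′ UTR of 2648 nt in replicate 1 and 2693.5 nt in replicate 2, against 1915 and 1921 nt for the other mRNAs with a summit and enough 3′ UTR. A longer 3′ UTR offers more of the 200 to 1000 nt stretch only up to 1000 nt. A 3′ UTR of at least 1000 nt was present on 91.5% and 91.3% of mRNAs with a proximal 3′ UTR peak. The part of 3′ UTR length was not tested. The coding sequences of mRNAs with a proximal 3′ UTR peak were no longer, with medians of 1680 and 1752 nt against 1821 and 1824 nt.

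Folds changed little with distance inside the stretch. The median fold was 2.78 at 200 to 400 nt and 2.77 at 800 to 1000 nt in replicate 1, and 2.77 at both in replicate 2. At the near limit, 91 summits of replicate 1 lay within 50 nt inside it with a median fold of 2.85, next to 124 within 50 nt outside it with 2.80. At the far limit, 99 lay within 50 nt inside with 2.81, and 96 within 50 nt outside with 2.86. In replicate 2, these counts were 97, 121, 92 and 98, with median folds of 2.80, 2.84, 2.81 and 2.68. Near-limit peaks overlapped the other list in 59.3% (inside) and 58.1% (outside) of cases in replicate 1, and in 63.9% and 65.3% in replicate 2. At the far limit, 44.4% of the peaks just inside and 51.04% of those just outside overlapped the other list in replicate 1, and 62.0% and 64.3% did in replicate 2. Their median widths were 183 and 209 bp in replicate 1 and 181.5 and 180 bp in replicate 2.

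How strong these peaks were was compared with the other regions of the same lists. The comparison regions were the coding sequence (CDS) more than 200 nt from the stop codon, the window within 200 nt of the stop codon, the distal 3′ UTR beyond 1000 nt, and the 5′ UTR. CDS peaks had a median fold of 2.96 in replicate 1 and 3.001 in replicate 2, stop codon peaks 2.93 in both, and distal 3′ UTR peaks 2.78 and 2.75. The fold of proximal 3′ UTR peaks was 0.938 times that of CDS peaks in replicate 1 and 0.921 times in replicate 2 (0.930 ± 0.0120, SD, n = 2, exact permutation p = 0.5). The middle range of folds, between the 25th and 75th percentiles, was 2.48 to 3.15 in replicate 1 for proximal 3′ UTR peaks and 2.62 to 3.601 for CDS peaks. These ranges overlapped broadly, and the peaks differed more at the top, since a fold of at least 5 was reached by 5.53% of CDS peaks in replicate 1 and 4.42% in replicate 2.

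The corrected significance separated the regions further. A q value of at most 0.05, the caller's p corrected for multiple testing, was held by 21 proximal 3′ UTR peaks of replicate 1 (1.27%) and 8 of replicate 2 (0.555%). Among all peaks at most 1000 bp wide the share was 9.41% in replicate 1 and 7.28% in replicate 2. CDS peaks stood at 12.1% and 9.44%, stop codon peaks at 8.25% and 5.69%, 5′ UTR peaks at 7.96% and 6.67%, and distal 3′ UTR peaks at 1.996% and 0.849%. The proximal 3′ UTR share was the lowest of the 5 regions in both lists, with the distal 3′ UTR nearest to it. It differed from the CDS share by −10.9 percentage points in replicate 1 and −8.89 in replicate 2 (−9.88 ± 1.40 points, SD, n = 2, exact permutation p = 0.5). At the other end, 81.7% and 85.6% of proximal 3′ UTR peaks had a q of 1, against 61.5% and 66.7% of the whole lists. CDS peaks stood at 57.2% and 61.7%, and distal 3′ UTR peaks at 76.2% and 84.6%. Most proximal 3′ UTR peaks, like most peaks of either list, thus passed only the uncorrected p limit of about 0.01 at which both lists stop.

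**Figure D2:**
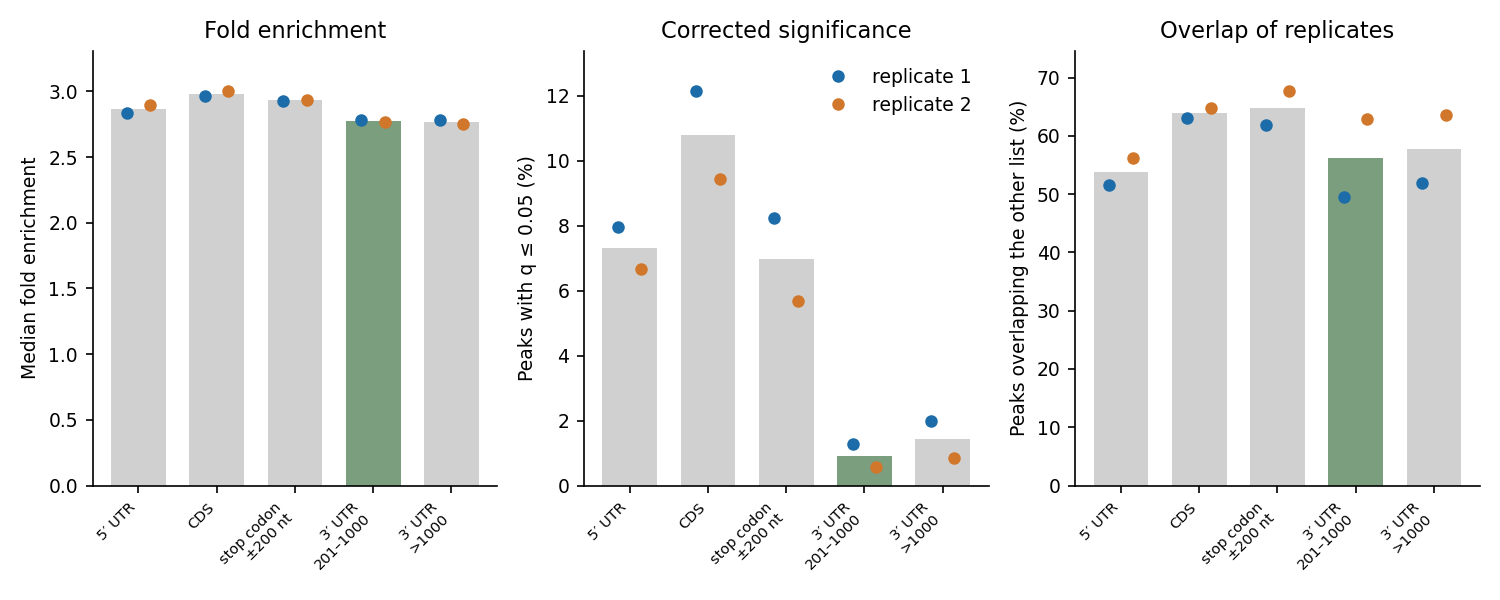
Median fold enrichment (left), percent of peaks with q at most 0.05 (middle) and percent of peaks that overlap a peak of the other list (right) for 5 mRNA regions. Points are replicate 1 (blue) and replicate 2 (orange), bars their mean, and the proximal 3′ UTR is the green bar, which is lowest for q at 1.27% and 0.555%.

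Proximal 3′ UTR peaks were wider than CDS peaks, with a median width of 173 bp in replicate 1 and 176 bp in replicate 2 against 103 and 100 bp. The lists are in genome coordinates, and a peak inside a short coding exon ends near its borders, whereas the last exon is long. CDS peaks in exons of at least 1000 nt, 1715 in replicate 1 and 1547 in replicate 2, were therefore set beside them as well. Their median width was 209 and 193 bp, their median fold 2.83 and 2.85, and their share with q at most 0.05 was 3.73% and 2.52%. Against them the fold ratio was 0.977 and the q difference −2.21 points (means over the replicates), both nearer to no difference than over all CDS peaks. With both kinds limited to widths of 100 to under 250 bp, they were 0.868 and −14.3 points, both farther from it. Both comparisons were chosen with the values in view, and the part of exon length and width in the gaps was not tested.

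Width went with strength among the proximal 3′ UTR peaks themselves. Peaks under 100 bp, 381 in replicate 1 and 374 in replicate 2, had median folds of 2.59 and 2.58. Those of 500 to 1000 bp, 200 and 170 in number, had 3.35 and 3.24. Of the 21 peaks of replicate 1 with q at most 0.05, 17 were in this widest class, as were 6 of the 8 of replicate 2, and none in either list was under 100 bp. At every width class the CDS peaks had the higher median fold, for example 3.09 and 3.12 against 2.70 and 2.69 at 100 to under 250 bp. The gap was smallest in the widest class, at 3.44 and 3.40 against 3.35 and 3.24.

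**Figure D3:**
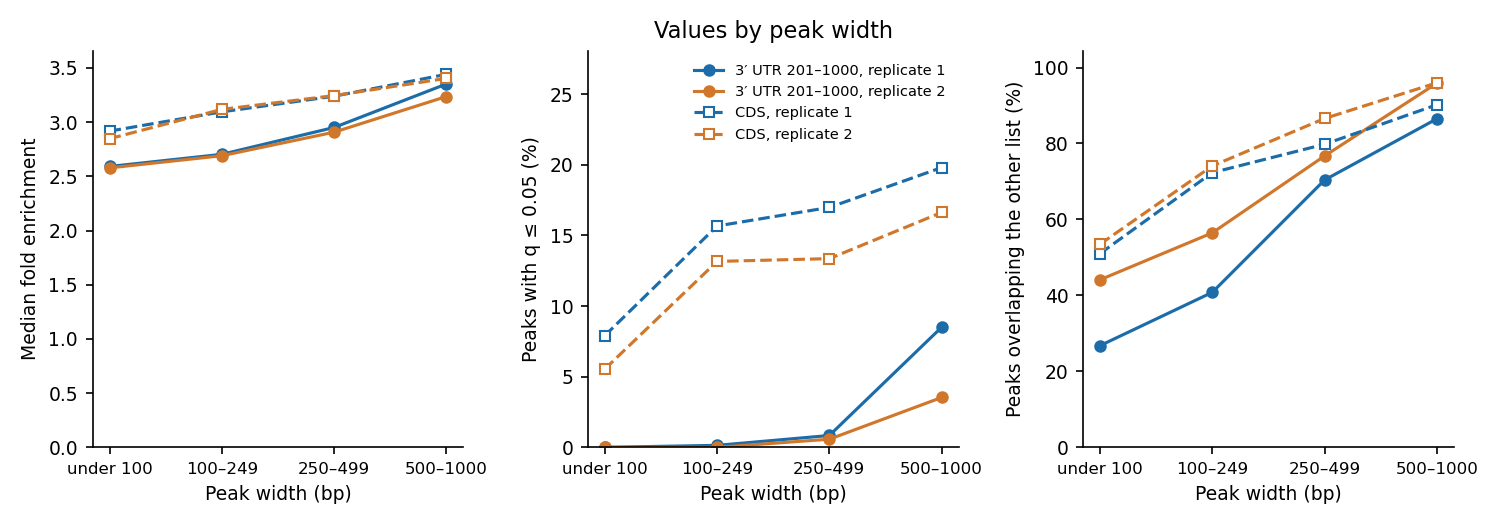
Median fold enrichment (left), percent with q at most 0.05 (middle) and percent overlapping the other list (right) by peak width in bp, for proximal 3′ UTR peaks (filled circles, solid lines) and CDS peaks (open squares, dashed lines) in replicate 1 (blue) and replicate 2 (orange). Fold and overlap are higher in each wider class of proximal 3′ UTR peaks, and the share with q at most 0.05 is highest in the widest, the median fold going from 2.59 and 2.58 under 100 bp to 3.35 and 3.24 at 500 to 1000 bp.

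How far the replicates shared these peaks was measured by overlap of at least 1 bp with any peak of the other list. In replicate 1, 818 proximal 3′ UTR peaks overlapped (49.5%), against 59.4% of all peaks at most 1000 bp wide. In replicate 2, 905 did (62.8%), against 63.6%. The first share was below the list as a whole by about 10 points, and the second was close to it. Shared peaks had median folds of 2.94 in replicate 1 and 2.93 in replicate 2, and the others 2.65 and 2.48. Shared peaks were also wider, at 259 and 234 bp against 131 and 125.5 bp, and the part of width in the overlap was not tested beyond the classes that follow. Peaks under 100 bp were shared in 26.8% and 44.1% of cases, and those of 500 to 1000 bp in 86.5% and 95.9%. A summit of the other list within 100 nt was found for 24.2% and 27.9% of proximal 3′ UTR peaks.

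By mRNA, 685 carried a proximal 3′ UTR peak in both replicates, which was 46.6% of those of replicate 1 and 54.0% of those of replicate 2. Among the 5066 mRNAs with a summit in both lists and enough 3′ UTR, this was 13.5%. Overlapping peaks, both proximal, formed 602 site pairs on 567 mRNAs, taking in 36.4% of the proximal 3′ UTR peaks of replicate 1 and 40.7% of those of replicate 2. Each replicate 1 peak in a pair was given 1 partner, and the partners were 586 distinct peaks of replicate 2, so some served more than once. Across the 602 pairs the log2 folds of the replicates had a Pearson r of 0.375 and a Spearman rho of 0.343, a description across sites that share the 2 libraries. Summits of a pair lay a median of 79 nt apart, 117 pairs (19.4%) had them within 10 nt, and the most distant were 673 nt apart. These gaps are to the partner used, which did not always hold the nearest summit. CDS pairs had a median gap of 22 nt and distal 3′ UTR pairs one of 102 nt, in the same order as the widths. Of the 602 pairs, 1 had q at most 0.05 in both replicates, 17 in at least 1, and 360 (59.8%) had a q of 1 in both.

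**Figure D4:**
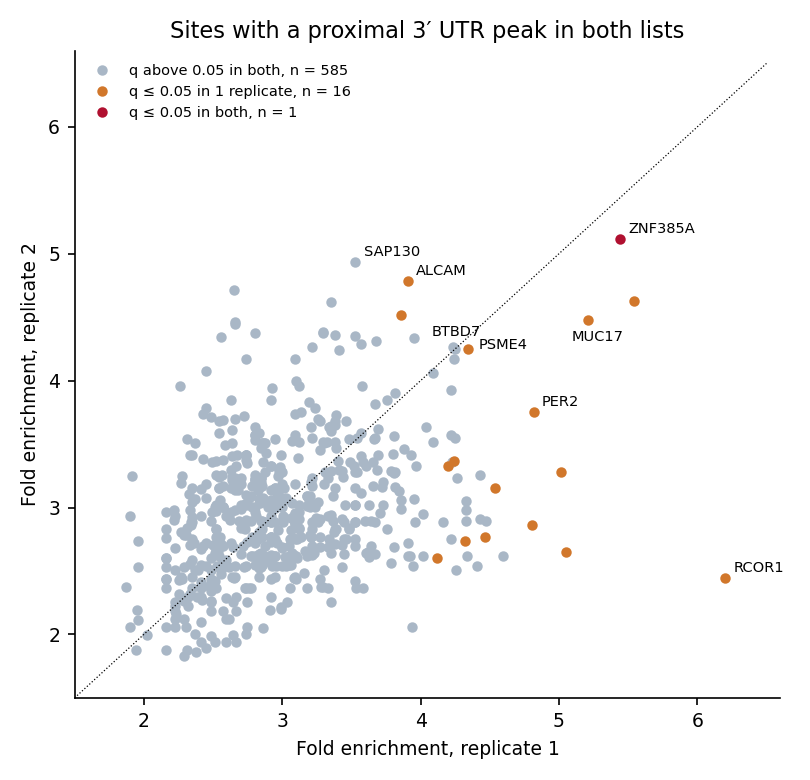
Fold enrichment in replicate 1 (x axis) against replicate 2 (y axis) for the 602 pairs of overlapping proximal 3′ UTR peaks, coloured by q at most 0.05 in neither, 1 or both replicates, with 8 of the 10 sites of highest mean fold named and equal values dotted. ZNF385A is the single site past the q limit in both, and RCOR1 lies far from the dotted line at 6.20 and 2.45.

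The site with the highest mean fold, 5.28, was in ZNF385A, which encodes a zinc finger protein. Its peak at chr12:54369222-54369968 in replicate 1 had a fold of 5.44 and a q of 0.00209, and the peak at chr12:54369170-54369951 in replicate 2 had 5.12 and 0.0142. The summits, 859 and 857 nt past the stop codon in a 3′ UTR of 1120 nt, were 2 nt apart. It was the sole site with q at most 0.05 in both lists.

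MUC17, a membrane mucin of the gut surface, had folds of 5.21 and 4.48 in a short 3′ UTR of 815 nt. Its summits lay at 511 and 274 nt, 237 nt apart, so the peaks were shared but the maxima were not at 1 place.

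ALCAM, a cell adhesion molecule of the immunoglobulin superfamily, had folds of 3.91 and 4.79 with summits at 721 and 722 nt, and passed the q limit in replicate 2 alone (0.0904 and 0.0294). PSME4, an activator of the proteasome, had 4.34 and 4.25 at 516 and 520 nt. BTBD7, a BTB domain protein, had 4.23 and 4.27 at 832 and 840 nt. For these last 2 the replicates gave nearly the same fold.

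The folds of the remaining sites differed more between the lists. SAP130, a subunit of the Sin3 histone deacetylase complex, had 3.53 and 4.94 with summits at 245 and 243 nt of a 784 nt 3′ UTR. PER2, a repressor of the circadian clock, had 4.82 and 3.75 at 911 and 833 nt. RCOR1, the CoREST scaffold of a histone demethylase complex, had the widest gap, with 6.20 and a q of 0.000633 in replicate 1 and 2.45 and a q of 1 in replicate 2. Its summits lay at 297 and 691 nt and only the edges of the peaks met, so its place among the 10 rests on replicate 1.

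**Figure D5:**
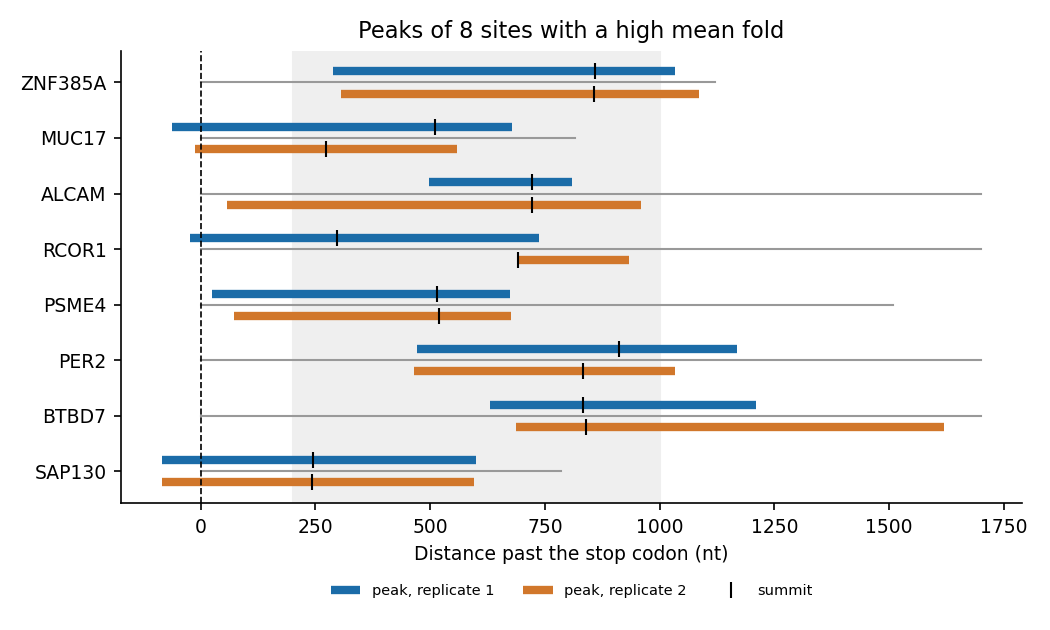
Peaks of 8 of the 10 sites with the highest mean fold by distance past the stop codon (x axis, nt), replicate 1 in blue and replicate 2 in orange, with black ticks at summits, the 3′ UTR as a grey line drawn up to 1700 nt, and the 200 to 1000 nt stretch shaded. The summits of ZNF385A (859 and 857 nt) and ALCAM (721 and 722 nt) coincide, while the RCOR1 peaks (summits at 297 and 691 nt) meet only at their edges.

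Beyond these, the proximal 3′ UTR peaks with q at most 0.05 had folds from 4.03 to 6.21 in replicate 1 and from 4.23 to 6.85 in replicate 2. In replicate 1, 19 of the 21 overlapped the other list, with MICALL1 and GATA4, a foregut transcription factor, as the exceptions. In replicate 2, all 8 did. The highest fold of replicate 1 was 6.21 for RALGAPA2, a GTPase-activating protein for RAL, whose summit at 202 nt lay at the near limit. The highest of replicate 2 was 6.85 for CREB3L1, a transcription factor held in the endoplasmic reticulum membrane, at 232 nt. Replicate 1 also held WASHC4 (4.03), USP3 (4.47), FOXN3 (5.05), AFF1 (5.02), NCOA1 (4.18), IPO9 (4.81) and S1PR3 (4.12), and replicate 2 held WAC (5.27), IRS1 (4.23), CSNK2A2 (4.89), PHF21A (4.52) and TRIM26 (4.77). The names in this paragraph other than those of the sites above were picked for their q after the values had been seen.

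The highest mean number of proximal 3′ UTR peaks per mRNA was 2.5, on MXD1 and RAD50. MXD1, a transcription factor of the MAX network, carried 2 in replicate 1 and 3 in replicate 2. Its summits at 281 nt matched to the base, with folds of 2.53 and 2.54, and those at 521 and 518 nt had 3.26 and 2.92. RAD50, a subunit of the MRN complex of DNA double-strand break repair, also carried 2 and 3, with folds from 2.39 to 3.51. ACACA, which encodes acetyl-CoA carboxylase, CKAP2, a spindle protein, and DMTN, an actin-bundling protein, carried 2 in each list, and were the first in alphabetical order of the 30 mRNAs with a mean of 2. Every peak on these 5 mRNAs overlapped one of the other list and none passed the q limit.

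Gene lists were read against the 13.5% of mRNAs with a summit in both lists that carried a proximal 3′ UTR peak in both. Of the mRNAs listed as known IGF2BP targets, 9 had a summit in both lists and 3 of these carried a proximal 3′ UTR peak in both. IGF1R, the receptor of insulin-like growth factors, had 4.43 and 3.25 with summits 850 and 550 nt past the stop codon. MKI67, the proliferation marker Ki-67, had 3.46 and 3.68 at 873 and 746 nt. Neither passed the q limit.

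Among cell cycle regulators, the group the study followed, 15 had a summit in both lists and 1 of these carried a proximal 3′ UTR peak in both, CCND2, a G1 cyclin, with 3.19 and 3.83 at 592 and 594 nt. RB1, the retinoblastoma repressor of E2F, had 2.37 at 988 nt in replicate 1 only. CDC25A, the phosphatase that activates CDKs at the G1-S transition, had 1 summit in each list, inside the stop codon window, and 0 proximal 3′ UTR peaks. CDK6, a G1 kinase, had 5 and 8 distal 3′ UTR summits and 0 proximal ones.

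In receptor and growth signalling, 6 of 27 mRNAs with a summit in both lists carried a proximal 3′ UTR peak in both. IGF1R, MAPK6, PIK3R1, TGFBR2 and SMAD4 were among them. TGFBR2, the type II receptor of TGF-β, had 3.02 and 3.07 with summits at 538 and 535 nt. MAPK6, an atypical MAP kinase, had 2.27 and 2.45 at 434 and 426 nt. SMAD4, the common mediator of TGF-β signals, had 2.41 and 2.90, but at 458 and 270 nt without overlap.

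Regulators of 3′ UTRs and mRNA decay had 4 of 33 with a proximal 3′ UTR peak in both lists. MSI2, an RNA-binding protein of stem cells, had summits at 976 and 977 nt with folds of 2.92 and 2.63. ELAVL1, the AU-rich element binding protein HuR, had 3.002 and 2.54 at 556 and 528 nt. TNRC6B, a scaffold of microRNA silencing, had 3.40 and 3.37 at 235 and 682 nt. CELF1 had 3.19 and 2.82, but at 918 and 676 nt without overlap. Among m6A writers, readers and erasers, 1 of 14 carried one in both, WTAP, an adaptor of the methyltransferase, at 373 and 644 nt without overlap. METTL16 (2.77) and FTO (2.56) had one in replicate 2 only. Small GTPases of the RAB and ARF families had 2 of 18, with RAB35 (2.73 and 2.36 at 557 and 559 nt) among them. RAB3B reached 4.61 with a q of 0.0646 in replicate 1, where it overlapped a peak of replicate 2 that was not itself a proximal 3′ UTR peak. Of the mitochondrial and ribosomal housekeeping mRNAs, 2 had a summit in both lists and 0 had a proximal 3′ UTR peak. The lists hold between 1 and 33 mRNAs with a summit in both replicates, so a difference of 1 mRNA moves their shares by several points, and none is called apart from the background.

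The labelled cell type was checked on the same mRNAs. Of 17 epithelial and adenocarcinoma markers found in the annotation, 5 had summits in both lists, with 33 summits in replicate 1 and 27 in replicate 2. CDH1, the epithelial cadherin, GATA6 and HNF4A, foregut and gut transcription factors, ERBB3 and VIL1, a brush border protein, were bound, whereas EPCAM, the keratins, CLDN3, CLDN4, CLDN7 and ERBB2 had 0 summits. Proximal 3′ UTR peaks in both lists were present on CDH1 (2.52 and 2.48), VIL1 (2.33 and 2.56) and HNF4A (3.05 and 2.70). Those of CDH1, with summits at 940 and 747 nt, did not overlap. Of 16 fibroblast, leukocyte and endothelial markers, 1 had summits in both lists, CD68, with 2 and 5 summits in all. The list came to 2 summits in replicate 1 and 15 in replicate 2, because COL1A1 and COL3A1 had 5 each in replicate 2 and 0 in replicate 1. Just 1 of these was a proximal 3′ UTR peak, on CD68 in replicate 2 (2.11). A summit does not show expression, every proximal 3′ UTR peak on these markers had a q of 1, and the part of these markers in the results was not tested.

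Whether mRNAs with a proximal 3′ UTR peak were bound elsewhere as well was examined next. A CDS peak was present on 85.6% of them in replicate 1 and 86.4% in replicate 2, against 86.2% and 87.4% of the other mRNAs with a summit and enough 3′ UTR. The other mRNAs, to be counted, needed a summit outside the 200 to 1000 nt stretch or in a peak wider than 1000 bp, whereas these did not. A stop codon peak was present on 57.8% and 59.5%, against 40.5% and 39.3%. A distal 3′ UTR peak was present on 53.6% and 54.9%, against 29.1% and 26.9%, with the longer 3′ UTRs given above beside it. mRNAs with a proximal 3′ UTR peak carried a median of 8 summits in both lists, against 4 and 3. The count includes the proximal summits by which they were chosen, so a higher count is partly built into the choice. The proximal 3′ UTR peak was the sole kind of summit on 64 mRNAs of replicate 1 (4.36%) and 60 of replicate 2 (4.73%).

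The share of mRNAs with a proximal 3′ UTR peak also went with CDS summits. Among mRNAs with a 3′ UTR of at least 1000 nt, it was 21.7% in replicate 1 and 17.9% in replicate 2 where there were 1 to 2 CDS summits. It was 32.6% and 29.1% at 3 to 5, 35.7% and 33.2% at 6 to 10, and 37.4% and 35.7% above 10. mRNAs with 0 CDS summits, which entered only through a summit in a UTR or near the stop codon, stood at 27.9% and 24.5%. RNA abundance was not analysed here. On the 1257 and 1095 mRNAs with both a proximal 3′ UTR peak and a CDS peak, the median fold was 2.83 and 2.77 in the proximal 3′ UTR and 3.01 and 3.02 in the CDS. The proximal 3′ UTR fold was the higher of the pair on 37.8% and 32.8% of these mRNAs.

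The sequence under the summits was compared with unbound sequence of the same stretch. Windows reaching 50 nt to either side of 1651 summits of replicate 1 and 1435 of replicate 2 were set against 4628 and 3485 tiles of the same length from the 200 to 1000 nt stretch of the same mRNAs that touched no peak of either list. GC content was 46.4% in the windows and 41.6% in the tiles in replicate 1, and 45.7% and 40.5% in replicate 2. The difference was 5.02 ± 0.213 percentage points (SD, n = 2, exact permutation p = 0.5), and it was 4.83 points when each mRNA counted alike in windows and tiles. The gain was in C, which was 4.05 and 3.70 points higher, and the loss in T, with differences of −4.30 and −4.77 points. G differed by 0.820 and 1.47 points and A by −0.564 and −0.398. Summit windows of the stop codon and the CDS held more GC still, 49.7% and 49.2% in replicate 1, and those of the distal 3′ UTR 44.9%.

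Short words followed the same axis. Of 748 words of 5 letters present in at least 5% of the tiles, those with the highest ratio of windows to tiles were CATCC at 1.73, CCATC at 1.65, CAGCC at 1.60, CAGAC at 1.60 and CCACA at 1.60 (means over the replicates). The lowest was TTTTT at 0.556. CACA, the core of CA-rich IGF2BP3 elements, was present in 42.0% ± 0.606 (SD, n = 2) of windows and 33.1% ± 0.796 of tiles. Its ratio was 1.26 in replicate 1 and 1.28 in replicate 2. It was 1.19 with tiles matched on GC content, and 1.49 in windows of 51 nt. The excess stayed in the same direction with matched tiles and was larger in the shorter windows. Tiles were matched on total GC, not on C and G apart, whereas the windows gained mainly C. Matching therefore cannot separate a word from C content, whose part in the ratios was not tested. CATA, CATC or CATT, the recognition words of this family, were in 70.4% of windows and 69.4% of tiles, a mean ratio of 1.02, and 1.08 after GC matching. With most tiles already holding a match, this ratio has little room to rise and cannot be compared with that of CACA. CATCC and CCATC, the highest words above, both contain CATC.

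The m6A words, which hold G as well as C, had mean ratios nearer to 1 than CACA after the same matching on total GC. GGAC was present in 24.7% of windows and 20.04% of tiles, with ratios of 1.16 and 1.31, but 1.02 after GC matching. GGACT was in 7.79% and 7.01%, with 1.13 and 1.09, and 1.00 after matching. TGGAC was in 8.21% ± 0.309 of windows and 7.45% ± 0.555 of tiles, with a ratio of 1.02 in replicate 1 and 1.19 in replicate 2 (1.11 ± 0.124, SD, n = 2). After matching its mean ratio was 0.980, with 0.898 in replicate 1 and 1.06 in replicate 2, so its direction turned in replicate 1 only. It ranked 282 of the 748 words. With matched tiles the mean ratios of all 3 m6A words lay between 0.980 and 1.02, but the replicates lay on either side of 1. GGAC had 0.967 in replicate 1 and 1.07 in replicate 2, and GGACT had 0.964 and 1.04.

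Words of AU-rich elements were rarer in the windows, and those of other 3′ UTR regulators varied. ATTTA, the core of AU-rich elements, was in 12.5% of windows and 19.9% of tiles, with ratios of 0.617 and 0.632, and 0.885 after GC matching. TTTTT was in 19.3% and 34.6%, with 0.530 and 0.582, and 0.750 after matching. TGTANATA, the Pumilio element, was in 1.40% and 2.52%, with ratios of 0.342 and 0.790 that the replicates did not share in size. After matching its mean ratio was 0.787, with 0.536 in replicate 1 and 1.04 in replicate 2, on either side of 1. AATAAA, the poly(A) signal, had 0.712 and 0.934, and 1.24 after matching. CTACCTC, the seed match of let-7, was in 0.507% and 0.568%, with ratios of 1.40 and 0.528 that pointed opposite ways. Over the 10 motif ratios the exact permutation p was 0.5 for 9 and 1 for CTACCTC, and 0.556 and 1 after Benjamini-Hochberg adjustment. Words were searched on the mRNA strand only, TGGAC and GGACT contain GGAC, and a match does not make a binding site.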

How the data were processed

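RIP-seq of IGF2BP3 in OE-19 cells was described by 2 deposited peak lists, called per replicate. According to the methods, the authors mapped paired-end reads to hg38 with Tophat2 and called peaks with MACS2 at default settings. The submitters' processing notes name fastp, HISAT2 and MACS2, without versions. The control library of the caller is not given in the sources used here. Each deposited row holds a fold enrichment (a ratio of RIP signal to local background at the summit), −log10 p and −log10 q, and a score, which was the whole part of 10 times −log10 p in 100% of rows. The lowest deposited −log10 p was 2.0003 and 2.00226, near a p limit of 0.01. Read depth is unknown, so counting error could not be given. The lists carry no strand.

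Summits were placed on 19061 MANE Select mRNAs of GENCODE release 44 (GRCh38). In replicate 1, 40308 lay on 1 mRNA and 162 on several, and in replicate 2, 38856 and 151 did. Opposite-strand exons of another gene lay at 60 and 48 proximal 3′ UTR summits, same-strand ones at 28 and 24, and such peaks cannot be given to 1 gene. Windows reaching 50 nt to either side of a summit were compared with tiles touching no peak, also matched 1 to 1 on GC content. Groups and replicate numbers came from the sample titles. Values were computed within each list and compared over the 2 replicates as mean ± SD, with exact two-sided sign-flip permutation tests. Peaks of 1 list are not replicates. Named genes were the 10 sites with the highest mean fold, all sites with q at most 0.05 in both lists, the 5 genes with the most peaks, and up to 5 genes of each gene list, except a few genes, 2 of the 10 sites among them, that are not reported here. The peaks, gene lists and tests were chosen with earlier results of these data known. Placement and word counts were tested on simulated data. Alternatives are given in the closing section. Computations ran in Python 3.11.15 with pandas 2.3.3, numpy 2.4.6 and scipy 1.17.1, and figures were drawn with matplotlib 3.10.9.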

Additional observations from a re-analysis of the deposited data

Results flagged for a closer look

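Peaks wider than 1000 bp fell outside the definition, yet their summits lay in the same 200 to 1000 nt stretch 89 times in replicate 1 and 74 times in replicate 2, a mean of 81.5 per list. They were looked at because they were left out of the region comparisons above, although peaks wider than 1000 bp were counted as the overlapping partner of 55 proximal 3′ UTR peaks of replicate 1 and 128 of replicate 2. Their median fold was 3.67 in replicate 1 and 3.58 in replicate 2, above the 2.78 and 2.77 of the proximal 3′ UTR peaks, and 19 and 12 had a q of at most 0.05. Of these wide peaks 96.6% and 98.6% overlapped the other list, and the widest ran 3993 and 3565 bp. Proximal 3′ UTR peaks of 900 to 1000 bp, 22 and 15 in number, had median folds of 3.599 and 3.52.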

How the results depend on the processing

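The mean of 1546.5 proximal 3′ UTR peaks per list fell to 14.5 with q at most 0.05 and to 5 with a fold of at least 5. The overlap of 56.2% (mean) was 19.2% when 50% of both peaks had to overlap, 26.0% for summits within 100 nt, 23.8% ± 13.5 (SD, n = 2, from just 7 and 3 peaks) with a fold of at least 5 in both lists and 22.0% ± 4.21 (from 21 and 8 peaks) with q at most 0.05 in both. The fold ratio to CDS peaks of 0.930 was 0.886 for means, 0.821 for −log10 p, 0.949 for shared peaks and 0.898 on mRNAs with both kinds. With alternatives added after the data were seen, it was 0.977 against CDS peaks of long exons and 0.868 at 100 to under 250 bp. The q difference of −9.88 points was −15.8 with p at most 1e-05, −12.2 on mRNAs with both kinds, −2.21 against long exons and −14.3 at 100 to under 250 bp. The density ratio of 0.699 was 0.745 for 3′ UTRs of at least 1000 nt, 0.790 on mRNAs with a proximal 3′ UTR peak and 0.725 for shared peaks. The GC difference of 5.02 points was 5.67 in windows of 51 nt, 4.72 in windows reaching 100 nt to either side and 6.07 for shared peaks. The mean TGGAC ratio turned from 1.11 to 0.980 with GC-matched tiles, in replicate 1 only (0.898, against 1.06 in replicate 2). AATAAA turned to 1.24 with these tiles, and CTACCTC turned to 1.00 for shared peaks and to 1.40 without replicate 2, with 0.528 without replicate 1. Leaving out either replicate gave 1441 to 1652 peaks, 49.5% to 62.8% overlap, fold ratios of 0.921 to 0.938, q differences of −10.9 to −8.89 points, density ratios of 0.683 to 0.716, GC differences of 4.87 to 5.17 points and TGGAC ratios of 1.02 to 1.19. Apart from the 4 turns named, every difference and ratio listed kept its direction.

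No paired analysis was possible because the inputs, which share replicate numbers with the RIP samples, had no values to compare with them here. With 2 replicates and unknown depth, small differences between regions cannot be resolved.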

Other observations

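The stretch under the BTBD7 summit reads like the start of an Alu element, the most abundant short repeat of the human genome, so a word of that repeat was counted after the sequence had been seen. TGTAATCCC, or the same word read on the opposite strand, was present in 22 windows of replicate 1 (1.33%) and 20 of replicate 2 (1.39%). It was in 1.06% of the tiles of either replicate, in 1.89% and 2.30% of distal 3′ UTR windows and in 0.0457% and 0.0285% of CDS windows. Reads from such repeats can map to many places, and how the authors' mapping treated them is not given in the sources used here.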
